A study of Bos taurus with 22 samples.

Results

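Mitochondrial ribosomal proteins are the protein components of the mitochondrial ribosome, and they were followed here in the jejunal mucosa of 22 Holstein steers measured by RNA-seq. Members were the protein-coding genes of the count table whose symbol is MRPL or MRPS followed by a digit, which gave 79 gene identifiers of 27570. They carry 77 symbols, because MRPL33 stands on 3 identifiers, and they lie on 27 chromosomes of the ARS-UCD1.2 cattle assembly. By symbol, 50 identifiers are MRPL and 29 are MRPS. MRPS30 and MRPS18A are known from the structure of the ribosome to sit in the large subunit, so the large subunit held 52 members and the small subunit 27. The 27 include MRPS36, which is counted by its symbol alone, since its protein is known as a subunit of another mitochondrial complex.

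Mitochondria keep a ribosome of their own, which translates the few messages of the mitochondrial genome. Those messages code for core subunits of the respiratory chain and of ATP synthase. All proteins of this ribosome are coded in the nucleus, made on cytosolic ribosomes and imported, and they assemble on mitochondrial ribosomal RNAs into a small subunit that decodes the message and a large subunit that joins the amino acids. In the intestine the renewing epithelium needs both kinds of ribosome: crypt cells divide and build protein, and villus enterocytes absorb nutrients at a high cost in energy.

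All 22 steers received raw corn starch into the abomasum at 3.94 g/kg of body weight per day for 7 d, so the control steers were starch-infused too. The control treatment (n = 5) added water and subcutaneous vehicle, which was bovine serum albumin (BSA) in saline. The GLP-2 treatment (n = 5) added water and glucagon-like peptide 2, a gut hormone that promotes mucosal growth, at 100 µg/kg of body weight per day in 2 portions. The peptide was given in the same vehicle, so the steers called BSA below are those that received vehicle alone. The casein treatment (n = 6) added sodium caseinate at 1.30 g/kg of body weight per day and vehicle, and casein + GLP-2 (n = 6) added caseinate and the peptide. The animals were growing steers of 10 to 12 months, assigned in 6 body weight blocks, and the mucosa was scraped whole, so every library mixes epithelium, lamina propria and lymphoid tissue. GLP-2 against BSA compared 11 steers with 11 over both infusions, and casein against water compared 12 with 10 over both injections.

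Libraries held 8809666 to 28447810 counts assigned to genes. Villus enterocyte markers were present in every treatment, and none of the 15 was at 0 in all steers of a group. Of the 12 B cell follicle markers, genes of lymphoid follicles as in Peyer's patches, the summed level ran from 33.1 to 112 CPM (counts scaled to library size) in GLP-2 steers and from 37.1 to 2863 CPM in BSA steers. Control replicates 1, 3 and 5 and casein replicate 3 stood apart, with mean follicle levels of 5.94 to 6.85 log2 CPM against 3.56 log2 CPM in the next steer. All 4 are BSA steers, and casein replicate 3 and control replicates 5 and 3 were also among the 4 lowest in nuclear respiratory genes, with GLP-2 replicate 1, so the results were computed with and without these 4. RNA integrity per steer is not given in the sources used here. The study reports it as a summary over samples with a wide range, and a control sample of low integrity was not sequenced. The part of RNA integrity in the values below was not tested. In bulk tissue, fewer cells of a type and less RNA per cell cannot be told apart.

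Together, members took 18.5 to 52.7 of every 10000 counts. Their share was 36.2 ± 8.34 per 10000 counts (SD, n = 11) in BSA steers and 26.7 ± 5.61 (n = 11) in GLP-2 steers. By treatment it was 35.0 ± 8.61 in control, 30.1 ± 4.83 in GLP-2, 37.1 ± 8.80 in casein and 23.9 ± 4.90 in casein + GLP-2. The mean share of the GLP-2 steers was therefore lower with either infusion, and the distance was larger with casein. This share carries no test.

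Levels between genes were compared in FPKM, which divides by gene length. The median member had a mean of 27.1 FPKM over the 22 steers, above the 8.06 FPKM of the median gene tested, and below the 193 FPKM of nuclear respiratory genes and the 935 FPKM of cytosolic ribosomal proteins. The highest members were MRPL41 at 131.8 ± 55.1 FPKM (SD, n = 22), MRPS33 at 118.7 ± 31.3 FPKM and MRPL36 at 103.9 ± 37.1 FPKM. The lowest tested were MRPS18B at 7.69 ± 2.86 FPKM, MRPS27 at 9.24 ± 3.08 FPKM and MRPL10 at 10.2 ± 2.45 FPKM. Neighbours within the highest 3 and within the lowest 3 differed by less than their SD over steers.

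MRPL24 (ENSBTAG00000001520, chromosome 3, 14093466 to 14098646) was the only member below the filter on low counts. It had 5 counts over all steers, at most 3 in a steer, and its interval overlaps HDGF on the same strand, which stood at 153.7 CPM. The other 78 members were tested. Of the 79, 22 overlap another annotated gene and 8 of these do so on the same strand, where reads in the shared stretch may be left out or assigned to either gene.

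A subset of the mitochondrial ribosomal proteins was lower with exogenous GLP-2 than with BSA. Of 78 members tested, 15 were lower (19.2%) and 0 were higher at an adjusted p of 0.05 (quasi-likelihood test of edgeR, adjusted over all 13928 genes by the Benjamini-Hochberg method). Over all genes tested, 8.37% were called lower and 5.13% higher. At an unadjusted p of 0.05 the members were 37 lower and 1 higher, against 18.1% and 16.5% of all genes. DESeq2 called 29 members lower and 1 higher, against 12.4% and 9.15% of all genes. With the block of body weight in the model, as the steers were assigned, edgeR called 5 members lower and 0 higher, against 2.43% and 2.52% of all genes. Whatever their p, 68 members were on the lower side and 10 on the higher side, with a median log2 fold change of -0.32 and a range of -0.87 to 0.48, whereas 49.3% of all genes were on the lower side and the median gene was at 0.01. Without the 4 steers high in follicle markers, 0 members and 0 of 14285 genes were called, and the members' median was -0.27. At an unadjusted p of 0.05, 25 members were then lower and 0 higher, against 7.52% and 5.97% of all genes.

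The calls fell in both subunits. In the large subunit 9 of 51 tested members were called lower and 44 lay on the lower side, with a median log2 fold change of -0.31. In the small subunit 6 of 27 were called lower and 24 lay on the lower side, with a median of -0.34. With the replicate block the calls were 2 large and 3 small subunit members, MRPL45, MRPL52, MRPS7, MRPS23 and MRPS27, at an edgeR adjusted p of 0.0482 to 0.0494. The other 10 then stood at an adjusted p of 0.0512 to 0.0865. A further 12 large and 7 small subunit members tended to be lower, with an adjusted p between 0.05 and 0.10, so that 34 members in all were lower at the wider threshold and 1 was higher. At that threshold 14.2% of all genes were lower and 11.9% higher.

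**Figure D1:**
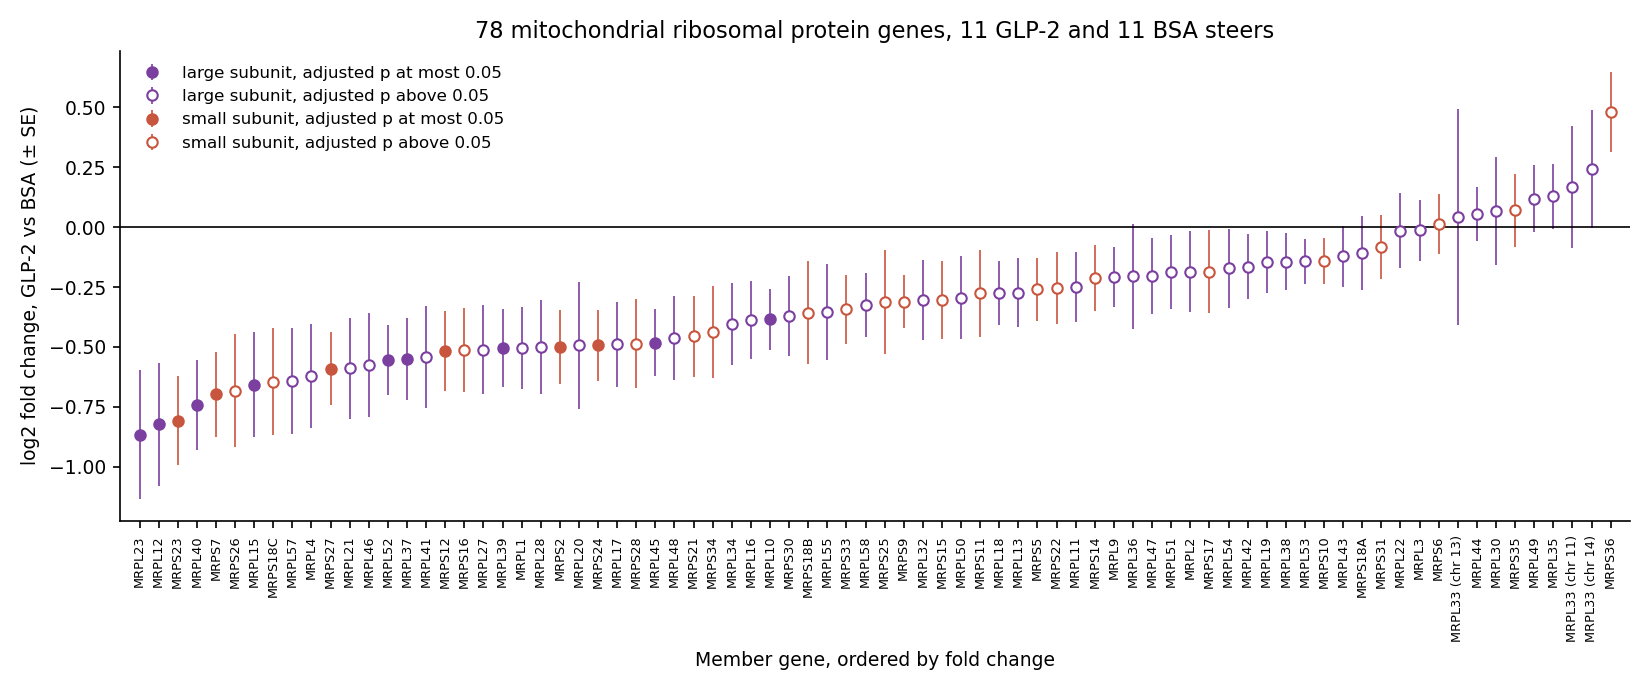
Log2 fold change, GLP-2 against BSA, (vertical axis) of the 78 tested members, ordered by value along the horizontal axis, with bars of 1 standard error from edgeR, 11 steers a group, colours for the subunit and filled points for an adjusted p of at most 0.05. The 15 called members lie between -0.87 and -0.38, and MRPS36 stands at the right end at 0.48.

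The smallest adjusted p was that of MRPS23 (ENSBTAG00000012366, chromosome 19, 8655164 to 8661689, minus strand), a small subunit protein that bacterial ribosomes lack. Its level was lowest 17.9, median 27.8 and highest 37.5 CPM in the 11 GLP-2 steers and lowest 24.1, median 53.1 and highest 75.1 CPM in the 11 BSA steers. The groups overlapped, since control replicates 2 and 4 and casein replicates 4 and 6 lay within the GLP-2 range, while the other 7 BSA steers lay above every GLP-2 steer. The mean was 28.5 ± 6.29 CPM in GLP-2 steers and 49.8 ± 18.1 CPM in BSA steers, a log2 fold change of -0.81 (SE 0.19, edgeR adjusted p = 0.0202).

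MRPL40 (ENSBTAG00000019891, chromosome 17, 72693872 to 72696274, plus strand), a large subunit protein also without a bacterial counterpart, had a lowest, median and highest level of 24.3, 30.7 and 48.6 CPM in GLP-2 steers and 26.1, 52.8 and 95.5 CPM in BSA steers. MRPS7 (ENSBTAG00000016133, chromosome 19, 56222482 to 56226605, minus strand), which binds the head of the small subunit as its bacterial counterpart does, had 18.1, 27.8 and 35.1 CPM in GLP-2 steers and 21.9, 38.4 and 73.1 CPM in BSA steers. In both genes the median of the BSA steers lay above every GLP-2 steer, and the lowest BSA steers lay inside the GLP-2 range. The log2 fold changes were -0.74 (SE 0.19) for MRPL40 and -0.70 (SE 0.18) for MRPS7, both at an edgeR adjusted p of 0.0229. MRPS7 is 1 of 4 called members that overlap another annotated gene, with MRPL45, MRPS27 and MRPL39.

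MRPS27 (ENSBTAG00000001962, chromosome 20, 9285735 to 9390606, plus strand), a pentatricopeptide repeat protein of the small subunit, measured 23.5 ± 5.05 CPM in GLP-2 steers and 35.2 ± 9.51 CPM in BSA steers. MRPL52 (ENSBTAG00000014822, chromosome 10, 21979443 to 21984547, minus strand) measured 31.5 ± 8.46 CPM and 46.3 ± 9.40 CPM. MRPL45 (ENSBTAG00000025001, chromosome 19, 38966206 to 38985585, plus strand), which sits at the tunnel exit and helps to hold the ribosome to the inner membrane, measured 27.9 ± 3.97 CPM and 39.0 ± 10.1 CPM. Each had a smaller SD in CPM with GLP-2 than with BSA, at a lower mean, and the groups overlapped in all 3. The log2 fold changes were -0.59 (adjusted p = 0.0239), -0.55 (adjusted p = 0.0240) and -0.48 (adjusted p = 0.0307) by edgeR. MRPS23, MRPL40, MRPS7, MRPS27 and MRPL52 kept their call when any 1 of the 22 steers was left out, and of these MRPL40 lost it with the replicate block (edgeR adjusted p = 0.0526).

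Members with well-described tasks in translation were spread over the range. MRPL12, the stalk protein that recruits translation factors and also binds the mitochondrial RNA polymerase, ran from 23.7 over a median of 57.4 to 100.0 CPM in GLP-2 steers and from 39.8 over 97.6 to 227 CPM in BSA steers. The low values came from steers that also received casein, since casein + GLP-2 steers had 23.7 to 73.9 CPM and GLP-2 steers 57.4 to 100.0 CPM. The log2 fold change was -0.82 (SE 0.26, edgeR adjusted p = 0.0394, with the block 0.0525). Its partner in the stalk, MRPL10, was also lower (-0.38, adjusted p = 0.0476, with the block 0.0665), whereas MRPL11, at the base of the stalk, was at -0.25 and did not pass (adjusted p = 0.226).

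MRPS12, a protein of the decoding centre, was lower, with 18.1 ± 4.71 CPM against 25.9 ± 7.00 CPM and a log2 fold change of -0.52 (SE 0.17, edgeR adjusted p = 0.0433, with the block 0.0865). MRPL58, which releases peptides from stalled ribosomes, had 37.0 ± 6.01 CPM against 46.3 ± 11.6 CPM, a tendency at -0.32 (edgeR adjusted p = 0.0934, with the block 0.108). MRPL3, a core protein of the large subunit near the peptidyl transferase centre, showed little distance, with 70.9 ± 12.1 CPM against 71.7 ± 16.7 CPM (log2 fold change -0.01, edgeR adjusted p = 0.952). MRPS30 was at -0.37 (edgeR adjusted p = 0.120).

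The 3 MRPS18 paralogs share a bacterial counterpart and take different places, A in the large subunit and B and C in the small. MRPS18C was at -0.64 (edgeR adjusted p = 0.0542), MRPS18B at -0.36 (adjusted p = 0.237) and MRPS18A at -0.11 (adjusted p = 0.637). MRPS18C was a tendency and the other pair did not pass, and the differences between the paralogs were not tested.

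The remaining called members were MRPL23 at a log2 fold change of -0.87 (SE 0.27), MRPL15 at -0.66, MRPL37 at -0.55, MRPL39 at -0.51, MRPS2 at -0.50 and MRPS24 at -0.49, with edgeR adjusted p from 0.0341 to 0.0495, and from 0.0512 to 0.0764 with the block. MRPL23, at the tunnel exit, had the largest size and a wide spread, 29.1 ± 11.9 CPM in GLP-2 steers and 52.9 ± 29.3 CPM in BSA steers. The GLP-2 and BSA steers overlapped in every one of the 78 members tested, as in every gene of the 4-treatment model (0.0% without overlap).

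**Figure D2:**
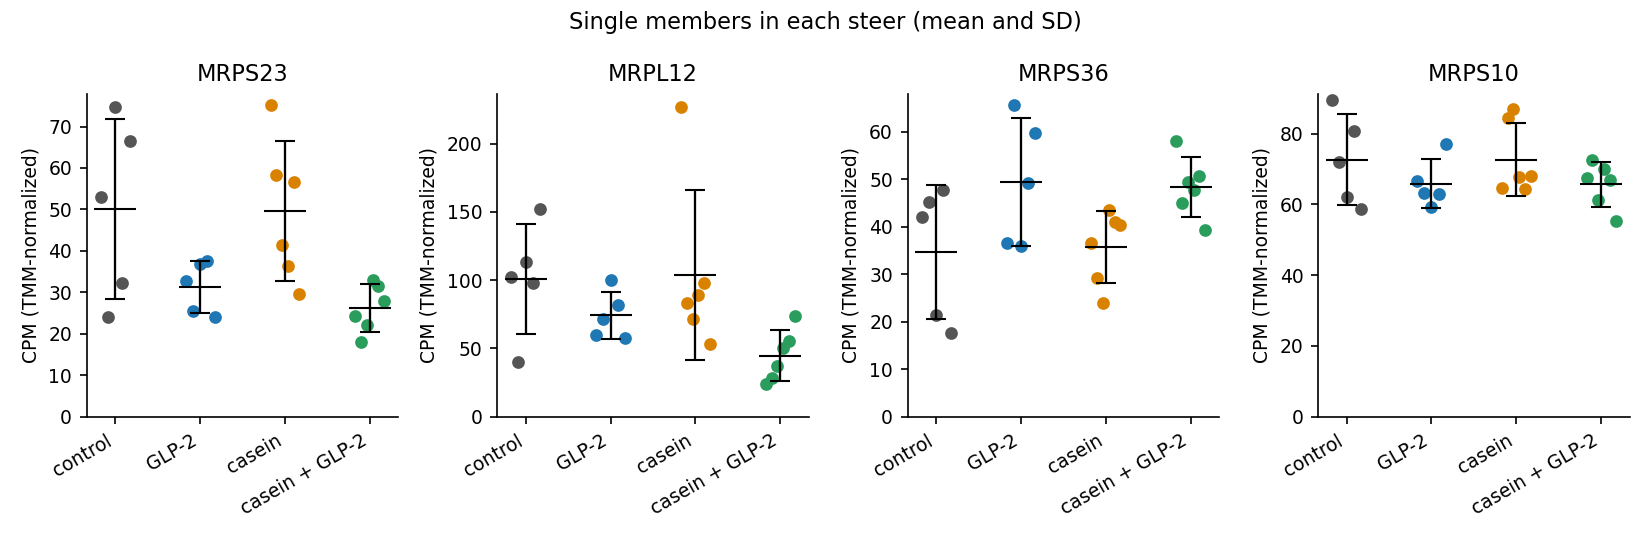
Normalized CPM of MRPS23, MRPL12, MRPS36 and MRPS10 in each steer (points) by treatment, with the treatment mean and SD (bars). MRPS23 reaches 75.1 CPM in casein and 37.5 CPM in GLP-2, MRPS36 lies higher in the treatments with GLP-2, and MRPS10 covers a similar range, 55.4 to 89.6 CPM over all steers.

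Against the direction of the rest, MRPS36 (ENSBTAG00000011045, chromosome 20, 10467519 to 10475679, minus strand) had the highest log2 fold change. This gene carries a mitochondrial ribosomal symbol, but its protein is known as a subunit of the oxoglutarate dehydrogenase complex of the citric acid cycle. Its levels were 36.6, 65.6, 35.9, 49.2 and 59.8 CPM in GLP-2 steers and 39.3 to 58.1 CPM in casein + GLP-2 steers. They were 41.9, 45.2, 21.5, 47.6 and 17.6 CPM in control steers and 24.0 to 43.5 CPM in casein steers. The 3 lowest steers were control replicates 5 and 3 and casein replicate 3, which are among the 4 high in follicle markers. The mean was 48.8 ± 9.57 CPM in GLP-2 steers and 35.3 ± 10.4 CPM in BSA steers, a log2 fold change of 0.48 (SE 0.17) and a tendency by edgeR (adjusted p = 0.0551). Without those 4 steers it was 0.27 (adjusted p = 0.381), and over all alternatives run, each left-out steer included, the adjusted p ran from 0.0313 to 0.997.

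The other 9 members on the higher side were close to 0 and none passed. They were the 3 MRPL33 identifiers (0.24, 0.17 and 0.04), MRPL35 (0.13), MRPL49 (0.12), MRPS35 (0.07), MRPL30 (0.07), MRPL44 (0.06) and MRPS6 (0.01). The 3 MRPL33 identifiers lie on chromosomes 11, 13 and 14, and those on 13 and 14 span a single stretch of 198 bases, as long as the model itself. Reads of near-identical copies cannot be assigned to 1 of them with certainty, so these values are uncertain. MRPL35 measured 43.0 ± 7.73 CPM in GLP-2 steers and 39.5 ± 9.15 CPM in BSA steers, and MRPL49 35.3 ± 3.08 CPM and 32.6 ± 8.93 CPM.

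No member passed the test between postruminal casein and water. The comparison gave 0 called members and 0 of 14096 genes (0.0%) by edgeR. At an unadjusted p of 0.05, 3 members were lower and 0 higher, against 1.84% and 1.53% of all genes tested. DESeq2 called 0 members, and 0.0355% of all genes lower. On the lower side lay 66 members, against 49.3% of all genes, and on the higher side 12, with a median log2 fold change of -0.14 that moved to 0.03 without the 4 steers high in follicle markers.

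The 3 members with the smallest p were MRPS18B, MRPL2 and MRPS34. MRPS18B (ENSBTAG00000006936, chromosome 23, 28366299 to 28373216) measured 8.87 ± 2.01 CPM in 12 casein steers and 13.6 ± 4.49 CPM in 10 water steers (log2 fold change -0.62, unadjusted p = 0.00309). Its control steers had 20.4, 11.9, 12.8, 21.2 and 17.2 CPM and the 6 casein steers 4.44 to 11.6 CPM. The gene was picked by its p, and the share of all genes that separate these groups was not counted. The GLP-2 steers had 12.3, 12.2, 8.8, 10.1 and 9.0 CPM and the casein + GLP-2 steers 6.8 to 11 CPM. The GLP-2 steers overlapped the lower ones among the control steers. The edgeR adjusted p for casein against control was 0.657. MRPL2, which helps to form the peptidyl transferase centre, was at -0.38 (unadjusted p = 0.0238) and MRPS34 at -0.46 (unadjusted p = 0.0279), and all 3 had an edgeR adjusted p of 0.994. MRPS18B, MRPL2 and MRPS34 each overlap another gene on the same strand.

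In the model of 4 treatments no pairwise contrast and no interaction had a member past the threshold, out of 15086 genes of which 0.0% were called in each. Casein + GLP-2 against casein came nearest. There 72 members lay on the lower side, against 51.9% of all genes, and 6 on the higher, and the median log2 fold change was -0.48. At an unadjusted p of 0.05, 42 members were lower and 0 higher, against 14.2% and 9.88% of all genes, and the smallest edgeR adjusted p was 0.118. DESeq2 called 15 members lower and 0 higher in this contrast, against 3.72% and 1.96% of all genes, and 0 members in the other pairwise contrasts and the interaction. MRPL40 was at -1.07 (SE 0.25), MRPL21 at -1.09 (SE 0.26) and MRPL12 at -1.22 (SE 0.34), each at an edgeR adjusted p of 0.118.

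GLP-2 against control had 57 members on the lower side, against 47.4% of all genes, and 21 on the higher, with a median of -0.15. At an unadjusted p of 0.05, 7 members were lower and 0 higher, against 8.35% and 5.59% of all genes. The lower count is near the share of all genes. The 7 were MRPS18B, MRPL45, MRPS23, MRPL10, MRPL39, MRPS7 and MRPS27. Leaving out control replicates 1, 3 and 5 leaves 2 control steers, and the median was then 0.11. Casein + GLP-2 against GLP-2 had 74 members on the lower side, against 51.4% of all genes, and a median of -0.32. At an unadjusted p of 0.05 it had 6 members lower and 0 higher, against 1.79% and 0.848% of all genes, and with the replicate block 3 and 0, against 0.895% and 0.51%. Casein against control divided the members nearly evenly, with 42 on the higher side, 36 on the lower, where 48.6% of all genes lay, and a median of 0.02, and at an unadjusted p of 0.05 it had 2 higher and 1 lower, against 2.9% and 2.76% of all genes.

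The casein by GLP-2 interaction asks whether the GLP-2 difference was unequal with and without casein. Its log2 value was below 0 for 71 members, against 52.7% of all genes, with a median of -0.27, and 5 were lower and 1 higher at an unadjusted p of 0.05, against 2.59% and 1.68% of all genes. None passed, with a smallest edgeR adjusted p of 0.996, so a difference between infusions in the response of the members was not shown. MRPL21 (ENSBTAG00000004348, chromosome 29, 46258414 to 46269659), a large subunit protein, had the smallest p. It measured 63.8, 39.3, 50.4, 55.8 and 51.1 CPM in control and 36.2, 48.0, 70.4, 62.0 and 47.1 CPM in GLP-2 steers, whose range held every control steer. In casein steers it ran from 44.6 to 146.2 CPM and in casein + GLP-2 steers from 27.2 to 48.7 CPM, with casein replicates 1 and 2 far above the rest at 105.3 and 146.2 CPM. The interaction was -1.11 (SE 0.38, unadjusted p = 0.00746), followed by MRPL34 at -0.86 (unadjusted p = 0.0126) and MRPL55 at -0.97 (unadjusted p = 0.0161).

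A score per steer, the mean log2 CPM over the 78 members, placed the steers on a single scale. It ran from 4.44 over a median of 4.94 to 5.24 in GLP-2 steers and from 4.70 over 5.22 to 5.61 in BSA steers. By treatment its mean was 5.17 ± 0.29 in control, 5.06 ± 0.16 in GLP-2, 5.17 ± 0.29 in casein and 4.75 ± 0.21 in casein + GLP-2. The 6 casein + GLP-2 steers all lay at or below 4.96, and 4 steers of the other treatments lay among them, control replicate 2 (4.70), GLP-2 replicate 1 (4.83) and casein replicates 6 (4.84) and 3 (4.87). The highest steer was casein replicate 1. The subunits moved together. The score of the large subunit exceeded that of the small by 0.05 ± 0.05 log2 units in GLP-2 steers and 0.01 ± 0.12 in BSA steers, and between steers the 2 scores had a Pearson r of 0.95 (n = 22).

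**Figure D3:**
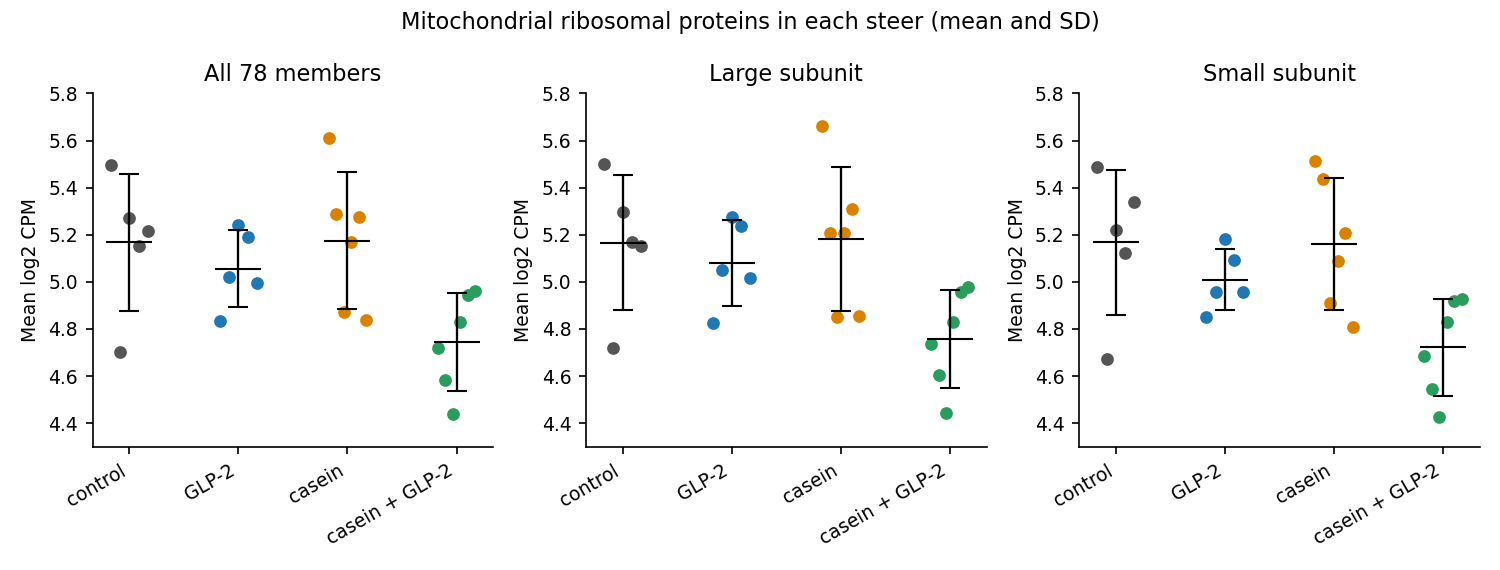
Mean log2 CPM of all 78 members, of the large subunit and of the small subunit in each steer (points) by treatment, with the treatment mean and SD (bars). Casein + GLP-2 is lowest in each panel, with means of 4.75, 4.76 and 4.72.

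The subunits were unequal in a pair of steers. Casein replicate 2 had a large minus small score of -0.23 and control replicate 5 of -0.19, and the other steers were closer to 0. Control replicate 5 was among the 4 steers high in follicle markers, and it was also low in MRPS36, MRPL49 and the MRPL33 copies on chromosomes 13 and 14.

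Between steers the members followed the cytosolic ribosomal proteins, the proteins of the ribosome that makes all other cell proteins. The Pearson r of the member score with the cytosolic score was 0.90 over 22 steers (Spearman rho 0.90), and 0.86 after treatment means were removed. It was 0.93 among 11 GLP-2 steers and 0.83 among 11 BSA steers, 0.94 among 12 casein and 0.84 among 10 water steers. Without the 2 steers farthest from the median of the cytosolic score r was 0.86, and without the 4 steers high in follicle markers it was 0.96. All scores come from the same libraries and share their depth and normalization, so these values are descriptions.

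With nuclear respiratory genes, the nucleus-coded subunits of complexes I to V, the relation was looser. The r of the member score was 0.39 over 22 steers (rho 0.42) and 0.50 after treatment means were removed. It was 0.77 among GLP-2 steers, 0.43 among BSA steers, 0.50 among casein steers and 0.13 among water steers. Without the 2 farthest steers, casein replicate 3 and control replicate 5, it was 0.52, and without the 4 steers high in follicle markers 0.70. With values corrected for gene length it was 0.05, so its size depended on the processing. The large subunit had r of 0.88 with the cytosolic score and 0.43 with the respiratory score, and the small subunit 0.93 and 0.30.

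**Figure D4:**
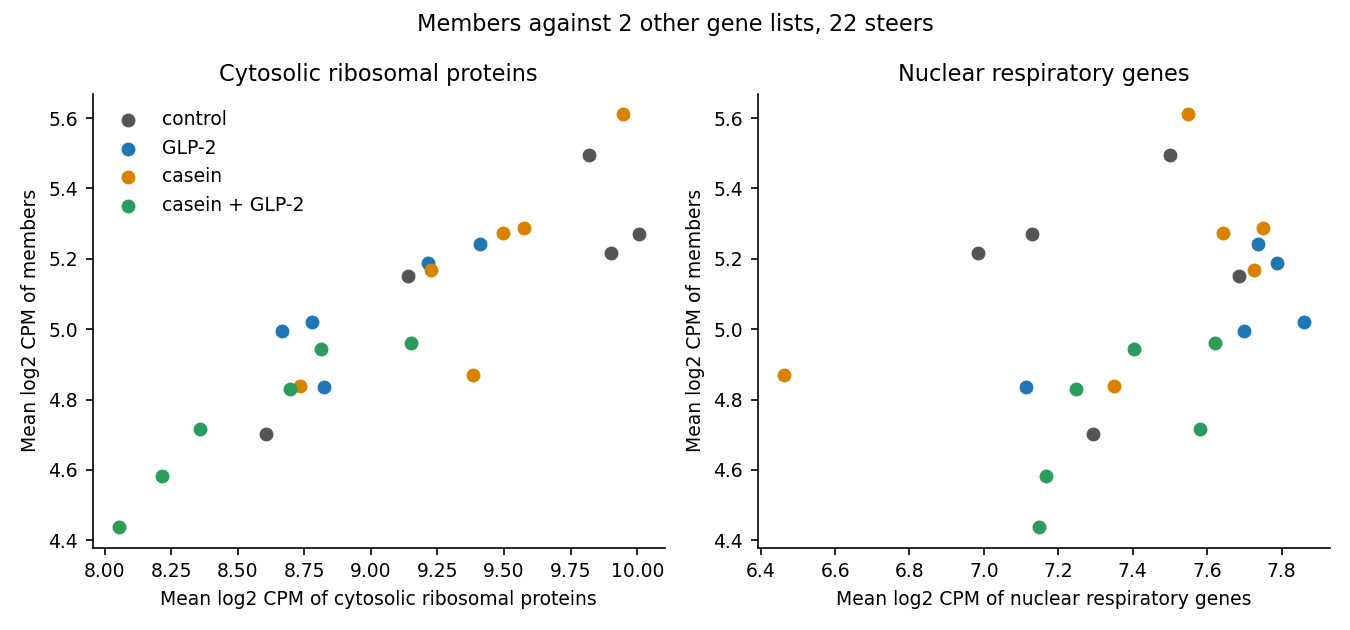
Member score of each of the 22 steers against the score of cytosolic ribosomal proteins and against that of nuclear respiratory genes, all in mean log2 CPM, with treatments marked. The points follow a line with the cytosolic score (r = 0.90) and scatter with the respiratory score (r = 0.39), where casein replicate 3 lies far to the left at 6.46.

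Single members were then set against these scores with treatment means removed, each member against the mean of the other members. The median r was 0.71, and 73 of 78 were above 0, whereas genes outside the list had a median of 0.01. MRPL34 (0.91), MRPL51 (0.90) and MRPL16 (0.90) were closest to the rest. MRPS10 (-0.17), MRPS36 (-0.11) and the MRPL33 copy on chromosome 13 (-0.07) were farthest. MRPS10, a small subunit protein with a bacterial counterpart, had an even level, with 65.7 ± 6.22 CPM in GLP-2 steers and 72.6 ± 10.9 CPM in BSA steers (log2 fold change -0.14, edgeR adjusted p = 0.30).

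The median r of members with the cytosolic score was 0.66 and with the respiratory score 0.33, against -0.02 and -0.01 for genes outside those lists. It was higher with the respiratory score than with the cytosolic score in 24 members. With the cytosolic score 67 members had an r above 0, against 49.0% of genes outside that list. Of 11 members with an r below 0 against the cytosolic score, 9 belong to the 10 on the higher side with GLP-2, and the other pair were MRPL22 and MRPS10. All 10 had an r above 0 with the respiratory score, up to 0.78 in MRPL35. This was common among members, since 66 of all 78 had an r above 0 with that score, against 48.8% of genes outside that list. MRPS36 had an r of -0.55 with the cytosolic score, 0.60 with the respiratory score and 0.79 with the villus markers.

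**Figure D5:**
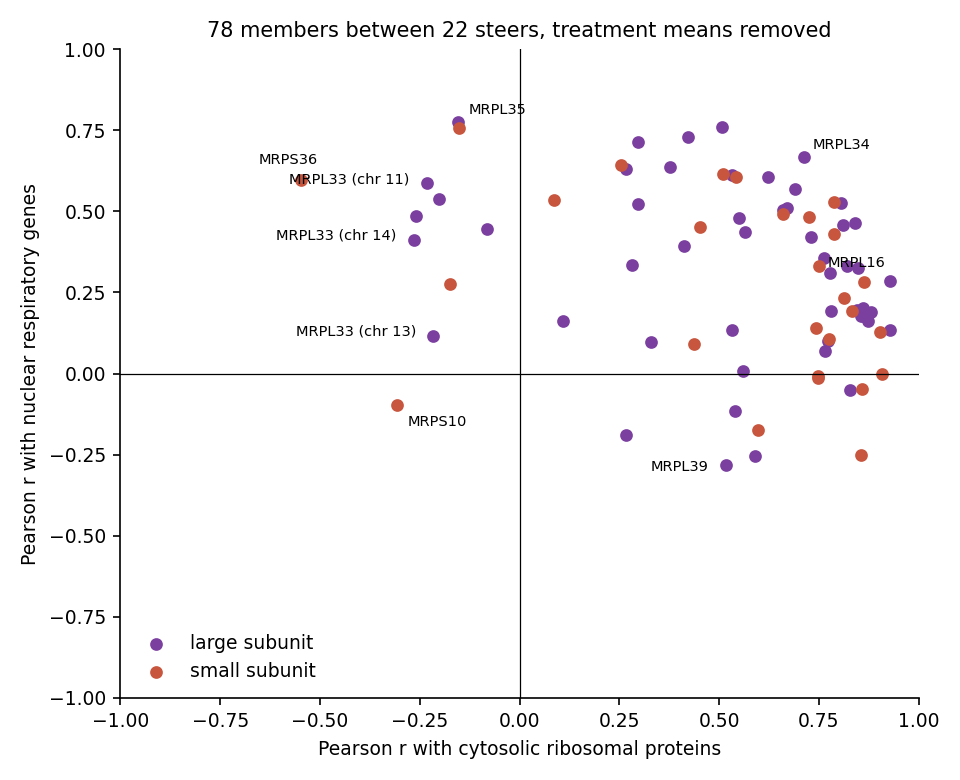
For each of the 78 members, the Pearson r between steers with the cytosolic ribosomal score (horizontal axis) and with the respiratory score (vertical axis), after treatment means were removed (n = 22 steers). Most members lie to the right of 0, and MRPS36 stands at the upper left at -0.55 and 0.60.

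By a rule added after values were seen, the 5 genes outside the list with the highest r to the member mean were GLRX3 (0.95), DNAJA3 (0.93), HSD17B10 (0.92), TUFM (0.91) and ATPAF2 (0.91), over 22 steers with treatment means removed. GLRX3 is a cytosolic glutaredoxin that handles iron-sulfur clusters, DNAJA3 a mitochondrial chaperone, HSD17B10 a part of mitochondrial RNase P, TUFM the mitochondrial elongation factor Tu and ATPAF2 an assembly factor of ATP synthase. The next 3 genes had nearly the same r, RPL21 (0.91), SSR2 (0.91) and RPS12 (0.90), and serve the cytosolic ribosome and the import of proteins into the endoplasmic reticulum.

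Genes that work with the mitochondrial ribosome gave the following between GLP-2 and BSA. Over all genes tested edgeR called 8.37% lower and 5.13% higher, and 2.43% and 2.52% with the replicate block. A further list held 6 genes with another kind of symbol, for proteins of the mitochondrial ribosome and for OXA1L, which binds it. Of these 6, 4 were called lower, with a median log2 fold change of -0.54. GADD45GIP1, a large subunit protein, was at -1.06, and the small subunit proteins PTCD3 and CHCHD1 were at -0.62 and -0.56. GADD45GIP1 ran from 12.4 over 20.6 to 41.0 CPM in GLP-2 steers and from 14.4 over 42.1 to 103 CPM in BSA steers, so the groups overlapped. With the replicate block 0 of the 6 were called, and the adjusted p of these 3 was 0.0507 to 0.0582. Of 27 assembly and ribosomal RNA factors 3 were called lower, MTERF3 (-0.91), DHX30 (-0.59) and ERAL1 (-0.53), which serve the maturation of the ribosomal subunits, and the median was -0.31. That count is near the share of all genes. With the block ERAL1 (edgeR adjusted p = 0.0541) and DHX30 (0.0506) lost the call and RCC1L (0.0482), a factor of ribosome assembly, gained it.

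Of 14 translation factors, GUF1 alone was called lower (-0.61, with the block an edgeR adjusted p of 0.0650) and the median was -0.06. This single call is near the 8.37% called lower over all genes tested. MTFMT, which formylates the initiator tRNA, tended to be higher (0.67, edgeR adjusted p = 0.0708). Of 17 mitochondrial aminoacyl-tRNA synthetases, which load tRNAs with amino acids, 4 were called lower, among them VARS2 (-0.70), WARS2 (-0.69) and MARS2 (-0.66), and 1, VARS2, with the block. Of 11 genes for transcription and replication of the mitochondrial genome 2 were called lower, MGME1 (-1.01) and TFB2M (-0.63), as with the block. Over these lists no gene was called higher, against 5.13% of all genes.

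Among 10 nuclear regulators of mitochondrial genes 1 was called higher and 3 lower, against 5.13% and 8.37% of all genes. With the replicate block it was 1 and 0, against 2.52% and 2.43%. PPARGC1A, the coactivator known for driving mitochondrial biogenesis, had a lowest, median and highest level of 9.97, 14.5 and 21.6 CPM in GLP-2 steers and 4.61, 8.30 and 10.3 CPM in BSA steers. The groups overlapped only between 9.97 and 10.3 CPM, and the log2 fold change was 0.94 (edgeR adjusted p = 0.0186). MYC, which drives ribosome and growth genes, was lower (-0.77, with the block an edgeR adjusted p of 0.0519), as was GABPB1 (-0.51, with the block 0.0568), a subunit of a factor that binds promoters of many nuclear mitochondrial genes.

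The lists used for the correlations were unlike each other in this comparison, in which 8.37% of all genes were called lower and 5.13% higher (2.43% and 2.52% with the replicate block). The cytosolic ribosomal proteins were counted by gene identifier, and some identifiers share a symbol. Of 81 identifiers tested 62 were called lower (31 with the replicate block) and 80 lay on the lower side. Their median log2 fold change was -0.74, and RPL10A (-0.97) and RPL11 (-0.87) were among them. Of 77 nuclear respiratory genes 57 lay on the higher side and 1 was called higher, NDUFS1 of complex I (0.52, edgeR adjusted p = 0.0423, with the block 0.0612), with UQCRC2 of complex III next (0.51, adjusted p = 0.0509) and a median of 0.08. The members' median of -0.32 lay between. The 13 protein genes of the mitochondrial genome itself were not analysed here.

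Markers of the cell types in the scrapings were compared between the same groups. Over all genes tested edgeR called 8.37% lower and 5.13% higher, and 2.43% and 2.52% with the replicate block. At an unadjusted p of 0.05, 18.1% of all genes were lower. The single T cell call and the stroma count at that unadjusted p are near these shares. All 15 villus enterocyte markers were on the higher side with GLP-2. Their median log2 fold change was 0.97, 2 were called (SLC5A1 and LCT, neither with the replicate block), and their summed level was 29509 to 96216 CPM in GLP-2 steers and 3482 to 78972 CPM in BSA steers. Of 13 crypt stem and proliferating cell markers tested 5 were called lower, 1 with the block (median -0.76), with sums of 235 to 1147 CPM and 319 to 1557 CPM. All 11 B cell follicle markers tested were called lower, 8 with the block (median -3.40), and 2 of 7 plasma cell markers (median -1.56), whose sums were 309 to 2479 CPM and 388 to 6302 CPM. Of 10 smooth muscle and stroma markers 0 were called and all were on the lower side (median -0.97), with 2 lower at an unadjusted p of 0.05 and sums of 80.8 to 2764 CPM and 86.2 to 2718 CPM. Of the T cell markers 1 of 10 was called lower (median -0.11), of the macrophage markers 1 of 9 higher (median 0.31), 0 with the block, and of the goblet cell markers 0 of 4 (median 0.36). No marker of these lists was at 0 in every steer of a group. Between steers the member score had an r of -0.65 with the villus, 0.60 with the crypt, 0.48 with the follicle, 0.69 with the plasma cell, 0.63 with the stroma, -0.35 with the T cell, 0.27 with the macrophage and 0.12 with the goblet cell score (n = 22). Without the 4 steers high in follicle markers no gene of any of these lists was called. With the follicle score as a covariate 0 members and 0 genes were called between GLP-2 and BSA. The follicle markers were themselves lower with GLP-2, so this covariate also takes out part of the GLP-2 difference. The 4 steers left out are all BSA steers, which leaves fewer of them to compare. Neither fit can tell follicle content and GLP-2 apart. The part of cell composition in the members' differences was not tested.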

How the data were processed

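Jejunal mucosa of 22 steers was sequenced as strand-specific poly-A libraries. The authors trimmed reads with fastp, aligned them to ARS-UCD1.2 with HISAT2 2.0.5 and deposited raw counts per gene from featureCounts 1.5.0-p3. The strand setting of the counting is not given in the sources used here. The authors also deposited FPKM, which were used for levels between genes and as an alternative scale. Columns of the authors' own comparisons were not used. A further GLP-2 steer was not analysed here.

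In R 4.3.3, genes were kept by filterByExpr in edgeR 4.0.16 (minimum count 10), normalized by TMM and compared with the quasi-likelihood test of edgeR, adjusted over all genes kept by the Benjamini-Hochberg method. An adjusted p of at most 0.05 was called, and at most 0.10 was a tendency. The pooled groups (GLP-2 and BSA, casein and water) were fitted separately, and pairwise contrasts and the interaction in a model of 4 treatments with 15086 genes. CPM are TMM-normalized, and scores are mean log2 CPM with a prior count of 2. The steps were also run on simulated counts, drawn gene by gene without correlation between genes. The changes set there were larger than those of the members between GLP-2 and BSA. That run is therefore no test at the sizes seen here. Coordinates are as deposited.

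The members and lists were chosen with earlier results of these data known. Members named are the 6 of smallest p on the lower side with GLP-2, the 6 with the highest fold change, the 3 with the smallest p for casein and for the interaction, the 3 highest and 3 lowest by FPKM, the 3 most and 3 least correlated with the rest, 10 by role and any below the filter. Of each list at most 3 genes are named, those with the smallest p. All 15 called members, all 10 on the higher side and a few more are named outside that rule, after their values were seen. The blocks are numbered in the labels and steers were randomized within them, so the block pairs the steers, and values with it are given where they change a call. Deviations from treatment means had a mean r of 0.0331 in 30 pairs of steers of a block (-0.464 to 0.387) and -0.0064 in 151 other pairs. The study's methods name no block in the tests of expression, so the values given first have none. Alternatives were DESeq2 1.42.0, its size factors, upper quartile normalization, other filters, the replicate block, a gene length correction (loess, span 0.3), limma 3.58.1 on log2 FPKM with a pseudocount of 1 or 0.1, the follicle score or the other factor as a covariate, each steer left out, and, chosen after seeing the data, the 4 steers highest in follicle markers left out.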

Additional observations from a re-analysis of the deposited data

Results flagged for a closer look

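In 156 groups of 5 or 6 steers, Dixon's test at the 95% level found the following 10 values apart from the rest of their treatment (6.41%), and chance alone gives about 5% of groups. Values are log2 CPM. Control replicate 5 was the lowest control steer in 4 of them: the large minus small subunit score was -0.19, against 0.01 to 0.08 in the other control steers, MRPL49 was 4.52 against 5.23 to 5.42, the MRPL33 copy on chromosome 14 was -0.0095 against 3.13 to 3.50, and the copy on chromosome 13 was -2.83 against 0.77 to 1.61. The value of -2.83 lies near the floor set by the prior count of 2, so it stands for few or no reads. The MRPL33 copy on chromosome 14 was also low in GLP-2 replicate 1, at 3.02 against 3.27 to 3.36.

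Among the members called between GLP-2 and BSA, MRPS7 was high in casein replicate 1, at 6.19 against 4.72 to 5.27 in the other casein steers, and MRPL52 was low in casein replicate 6, at 5.01 against 5.50 to 5.70. Both calls were kept when the steer in question was left out. MRPS18B was low in casein replicate 3, at 2.19 against 3.15 to 3.56. In casein + GLP-2 steers, MRPL35 was low in replicate 3, at 5.03 against 5.33 to 5.44, and MRPL3 was high in replicate 6, at 6.42 against 5.83 to 6.05.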

How the results depend on the processing

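Between GLP-2 and BSA the median log2 fold change of the members stayed below 0 under all 13 alternatives (-0.39 to -0.19) and all 22 fits that left out a steer (-0.39 to -0.28), but the number of members called did not stay near 15 (9 large and 6 small subunit). It was 9 with no filter on low counts (5 large), 27 with at least 10 counts in every steer (15 large, 12 small) and 30 with DESeq2 (17 large, 13 small). Large subunit calls were 5 and 4 with limma on log2 FPKM with a pseudocount of 1 and 0.1. With the replicate block 5 members were called (2 large, 3 small; 689 genes in all against 1881), and with the block and a gene length correction 0, in either subunit. In the other comparisons 0 members were called with or without the block. With the follicle score as a covariate, and without the 4 steers high in follicle markers, 0 members were called in either subunit. Leaving out a single steer gave 5 to 36 members, 2 to 23 large and 3 to 13 small. The lowest was reached without casein replicate 1, control replicate 1 or 3 or casein + GLP-2 replicate 3, and the highest without control replicate 2. Calls over all genes changed between fits as well. DESeq2 called 12.4% of all genes lower and 9.15% higher, against 8.37% and 5.13% in the main fit. For the other filters, limma and the left-out steers the shares of all genes are not given here. The counts of members under those fits are therefore not read as a change in the members alone. The cause of these changes was not tested.

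DESeq2 called 15 members for casein + GLP-2 against casein, where edgeR called 0. Without the 4 steers high in follicle markers the median moved to 0.11 for GLP-2 against control, 0.36 for casein against control and -0.65 for the interaction, and the correlation to 0.96 with the cytosolic and 0.70 with the respiratory score. Members near 0 changed sign. MRPL3 was at 0.043 with the length correction, 0.061 with the follicle covariate and -0.074 to 0.066 without single steers. MRPS18A was at 0.0078 with the length correction and 0.020 with block and length together. MRPL35 was at -0.022 with the follicle covariate. MRPL33 on chromosome 11 was at -0.26 with that covariate and -0.091 without the 4 steers, and on chromosome 13 at -0.18 and -0.15, at -0.036 with upper quartile normalization and at -0.12 to 0.28 without single steers. With 5 counts in all, MRPL24 could not be compared. Its interval lies wholly within that of HDGF on the same strand, so its reads may have been left out or assigned to HDGF, which was not tested.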
